A study of Mus musculus with 18 samples.

Results

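Ribosome-bound mRNA abundance, taken over all fractions of a sucrose gradient, was compared between Ddx6 knockout (Ddx6 KO) and wild-type mouse embryonic stem cells (ESCs). The comparison used all 18 libraries of the series, which came from 6 gradients with a monosome, a low polysome (2 to 4 ribosomes) and a high polysome (4 or more ribosomes) library each. For each gene and gradient the log2 CPM (a gene's counts relative to the library total, scaled by the TMM method) was averaged over the 3 fractions, and the 3 Ddx6 KO gradients were set against the 3 wild-type gradients. Of the 51467 genes counted, 12705 had at least 3 CPM in at least 3 libraries and were tested. A level quoted for a gradient below is this average turned back into CPM. Each fraction has the same weight in it, whatever share of the cell's mRNA the fraction held, so a gene that moved from 1 fraction to another by equal log2 amounts shows no change here.

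All cells were V6.5 ESCs kept in serum medium to which LIF and 2i (PD0325901 and CHIR99021) were added, and all were arrested for 2 minutes in 100 ug/ml cycloheximide before lysis. The Ddx6 KO cells were made with Cas9 and a guide RNA against Ddx6 and carried on as clones. Per the study's methods, a clone had a small insertion and the other a large deletion, both with an early stop codon and no DDX6 protein on a Western blot. Which of them is clone 1 was not given in the sources used here. Gradient 1 of the knockout was from clone 1 and gradients 2 and 3 were from clone 2, while the wild-type gradients were from the parental line. Cloning and the loss of Ddx6 therefore cannot be told apart, and clone 1 has 1 gradient. Replicate gradients of a clone were not stated to come from separate cultures, so p-values measure the spread between gradients, which may in part be technical.

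DDX6 is a DEAD box RNA helicase. It bridges the CCR4-NOT deadenylase, which miRNA complexes recruit to their targets, to the decapping enzymes and to repressors of translation, and it is needed for the RNA granules called P-bodies. An mRNA carried by a lone 80S ribosome sediments as a monosome and an mRNA with many ribosomes as a polysome. The level over all fractions follows how much of an mRNA is in the cell and bound by ribosomes.

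Library totals ranged from 2543617 to 11474550 gene counts, and the 3 wild-type monosome libraries were the shallowest. In a principal component analysis of the 6 gradient values, component 1 held 85.8% of the variance and separated all wild-type from all Ddx6 KO gradients. Component 2, with 6.28%, placed gradient 1 of each genotype, which for the knockout is clone 1, at the top, and wild-type gradient 3 and both clone 2 gradients at the bottom. The labels name no preparation or sequencing batch. Markers of other cell types were read over whole lists. The 16 fibroblast and feeder cell markers summed to 37.1 to 44.8 CPM in wild-type gradients and 33.5 to 36.1 CPM in Ddx6 KO gradients, and Col3a1 and Fap had no count in any library. The ESC identity markers were present in both genotypes, at a sum of 6574 to 7160.3 CPM and 6199.6 to 6529 CPM.

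The targeted gene was examined first. Ddx6 (ENSMUSG00000032097.10, chromosome 9, 44604892 to 44640731, GRCm38) was at 162, 182 and 184 CPM in wild-type gradients 1, 2 and 3. In the knockout it was at 64.1, 17.6 and 15.98 CPM in gradients 1, 2 and 3, below every wild-type gradient. Clone 1 kept 36.4% of the wild-type mean and clone 2 kept 9.51%. The log2 change was -2.72 (SE 0.36, limma adjusted p = 3.2e-05). Within the monosome, then the low and then the high polysome, the change was -2.33, -2.56 and -3.27, and they differed between fractions (limma F test, adjusted p = 0.0362). The libraries count 3′ ends of mRNAs, so this level reads the amount of Ddx6 mRNA and does not check the edit, which lies in the coding sequence.

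Before single genes, the tested genes were ordered by chromosome, and 2 nuclear chromosomes stood apart in the knockout. The 618 tested genes of chromosome 6 had a median change of 0.52, at 0.59, 0.49 and 0.47 in Ddx6 KO gradients 1, 2 and 3, against -0.02 for all genes tested. The shift was in both clones. Of these 618 genes, 391 (63.3%) were higher and 70 (11.3%) lower in the knockout. The counts include 51 genes that reached the 3 CPM filter through knockout libraries alone, of which 44 were higher. Another 17 reached it through wild-type libraries alone, of which 13 were lower. The shift was present in the monosome (0.51), the low polysome (0.52) and the high polysome (0.47). It was also present along the whole chromosome, where 15 consecutive windows of 41 or 42 genes had medians between 0.34 and 0.85. The other autosomes and X had medians between -0.15 and 0.08 in every Ddx6 KO gradient. The number of chromosome 6 copies was not measured, and its part in the results below was not tested, so for many of the lists counts are given also without chromosomes 6 and Y.

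Y-linked genes differed between the clones. Ddx3y, the Y-linked relative of the helicase gene Ddx3x, had 120, 156 and 241 counts over the 3 fractions in wild-type gradients and 386 in clone 1, but 2 and 4 in the clone 2 gradients. Uty, a histone demethylase relative, had 64, 88 and 116 counts in wild type and 113 in clone 1, then 0 and 2 in clone 2. Eif2s3y, a subunit of translation initiation factor eIF2, had 43, 70 and 63 counts in wild type, 297 in clone 1, and 0 and 3 in clone 2. The clone 2 gradients were at the counting floor for all 3 genes, so a mean over the knockout gradients mixes clones with different levels. Whether clone 2 kept its Y chromosome was not tested.

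**Figure D1:**
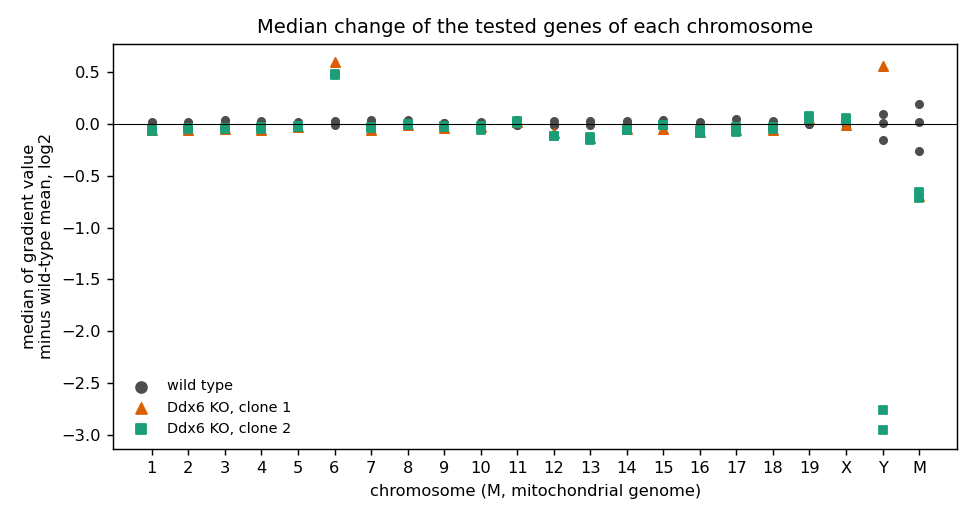
Median, over the tested genes of each chromosome, of the gradient value minus the wild-type mean (log2, vertical axis) for the 6 gradients. The 3 Ddx6 KO gradients lie at 0.59, 0.49 and 0.47 on chromosome 6, and on Y the clone 1 gradient is above the wild-type gradients while both clone 2 gradients are far below them.

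Changes over all genes were numerous and balanced in direction. Of 12705 genes, 3625 (28.5%) were higher and 3650 (28.7%) lower in Ddx6 KO cells in the limma fit (Benjamini-Hochberg adjusted p under 0.05), which is 57.3% in all. Among the 12083 genes off chromosomes 6 and Y, 3234 were higher and 3577 lower. With an absolute log2 change over 1 as a second criterion, 910 genes (7.16%) were higher and 735 (5.79%) lower. In 4021 genes (31.6%) all 3 Ddx6 KO gradients were above all 3 wild-type gradients, and in 3979 (31.3%) all were below. Most changes were small. The middle 50% of them lay between -0.37 and 0.37, and the median standard error was 0.12. TMM scaling centres the bulk of genes near no change. The values therefore say how a gene moved against the bulk, and not whether the total amount of ribosome-bound mRNA differed.

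**Figure D2:**
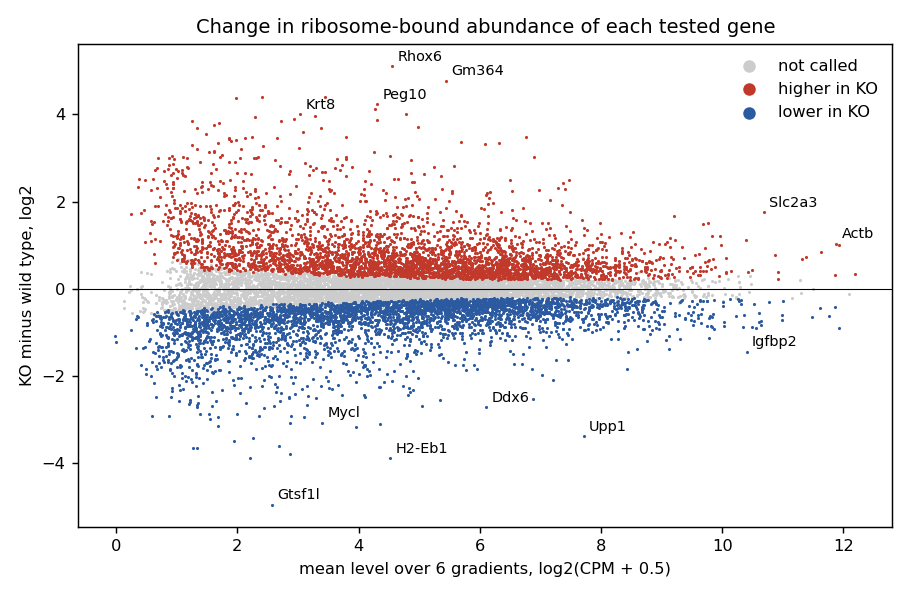
Log2 change (KO minus wild type, vertical axis) against the mean level over the 6 gradients (log2(CPM + 0.5), horizontal axis) for the 12705 genes tested. Red points are the 3625 genes higher in the knockout, blue points the 3650 lower ones and grey points the genes that did not pass the test, with named genes labelled.

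The 12 largest rises, among genes with at least 10 CPM in the knockout and no overlap between gradients, were led by Rhox6. Rhox6, a homeobox gene of an X-linked cluster expressed in reproductive tissues, was at 3.52, 3.96 and 3.09 CPM in the wild-type gradients and at 155, 129 and 131 CPM in the knockout. It rose by 5.11 on the log2 scale (SE 0.12, limma adjusted p = 1.15e-11). Its neighbour in the cluster Rhox9 went from 2.58, 1.57 and 1.56 CPM to 50.9, 52.1 and 45.9 CPM, a rise of 4.41 (SE 0.16, limma adjusted p = 4.56e-10). Gm364, an uncharacterised X-linked gene, was at 7.49, 8.80 and 7.18 CPM and then at 210.4, 217 and 252 CPM, a rise of 4.77 (SE 0.11, limma adjusted p = 1.15e-11). For all 3 genes every knockout gradient, of either clone, lay above the wild-type ones, which the choice of the ranked genes required.

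Krt8, a keratin of simple epithelia, was at 1.32, 1.45 and 1.90 CPM in wild type and 39.1, 28.8 and 29.5 CPM in the knockout, a rise of 4.00 (SE 0.16, limma adjusted p = 1.17e-09). Krtdap, a gene of keratinocyte differentiation, went from 6.47, 5.32 and 7.38 CPM to 126, 96.7 and 106 CPM (4.00, SE 0.13, limma adjusted p = 2.55e-10). In both genes clone 1 was the highest knockout gradient. The iron exporter Slc40a1 (ferroportin) was nearly silent in wild type, with 26 counts over 9 libraries, and had 1592 counts in the knockout. Its fitted rise of 4.38 (SE 0.20, limma adjusted p = 2.83e-09) rests on low wild-type levels, at which the pseudocount of 0.5 CPM compresses the change. The bradykinin receptor Bdkrb2 likewise had 41 counts in wild type and 2169 in the knockout, and rose by 4.40 (SE 0.15, limma adjusted p = 2.59e-10). The amino acid transporter Slc38a5 rose by 3.95, the thyroid hormone binding protein Crym by 3.97 and the RNA-binding protein Rbm24 by 3.89. On chromosome 6, the imprinted gene Peg10, which is needed for the placenta, went from 4.86, 4.32 and 3.23 CPM to 87.7, 86.7 and 82.2 CPM, a rise of 4.23 (SE 0.13, limma adjusted p = 2.35e-10). Gpnmb, a transmembrane glycoprotein of lysosomes and melanosomes on the same chromosome, rose by 4.12 (SE 0.13, limma adjusted p = 2.35e-10), many times the chromosome's median.

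The 12 largest falls were led by Gtsf1l, a relative of the gametocyte factor Gtsf1. It was at 32.5, 31.0 and 34.1 CPM in wild type and at 0.853, 0.407 and 0.481 CPM in the knockout, and changed by -4.96 (SE 0.17, limma adjusted p = 2.59e-10). H2-Eb1, a chain of the class II antigen-presenting molecule, went from 103, 81.9 and 81.2 CPM to 7.71, 3.86 and 5.52 CPM (-3.88, SE 0.19, limma adjusted p = 4.26e-09). Upp1, the uridine phosphorylase, was the most abundant of the 12. It was at 693, 602 and 749 CPM in the wild-type gradients and at 87.1, 54.6 and 56.2 CPM in the knockout, a change of -3.39 (SE 0.15, limma adjusted p = 2.29e-09), which within the fractions was -3.50, -3.28 and -3.38. Mycl, a transcription factor of the Myc family, went from 35.6, 30.5 and 24.8 CPM to 4.53, 2.49 and 2.65 CPM (-3.08, SE 0.19, limma adjusted p = 4.65e-08). In all 4 genes every knockout gradient lay below the wild-type ones, which the choice of the ranked genes required.

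The remaining falls were the protocadherin Pcdh19 (-3.88), the Ets family transcription factor Spic (-3.78), the secreted phospholipase Pla2g1b (-3.62), Elobl (-3.50), Pramel7 (-3.41) and Smtnl1 (-3.18), and the genes named only by clone, 2210409E12Rik (-3.11) and 5330411J11Rik (-3.08). Their limma adjusted p-values ran from 1.02e-09 to 1.37e-07. Smtnl1, a smoothelin-like muscle protein, was the single gene among the 12 falls whose change differed between fractions (-2.79, -3.71 and -3.02, limma F test adjusted p = 0.0448).

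**Figure D3:**
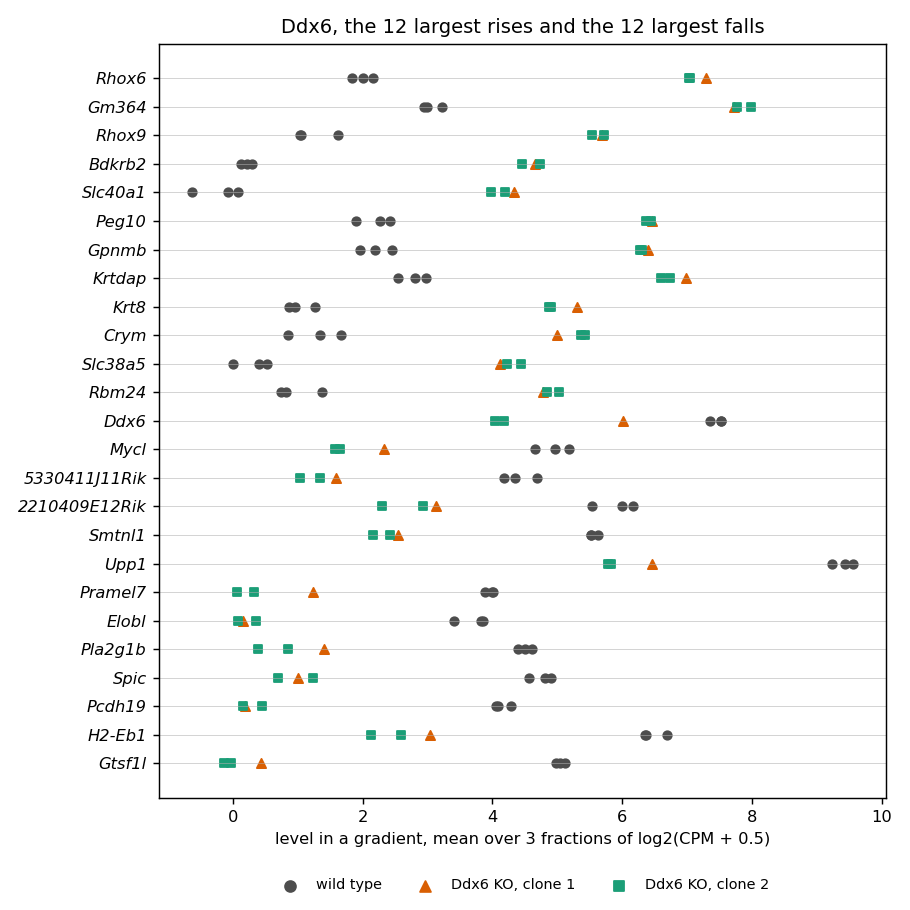
Level of Ddx6 and of the genes with the 12 largest rises and 12 largest falls in each of the 6 gradients (mean over 3 fractions of log2(CPM + 0.5), horizontal axis). Circles are wild-type gradients, triangles clone 1 and squares clone 2, and in every gene shown the wild-type and knockout gradients do not overlap, which the choice of the ranked genes required.

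Among very abundant mRNAs, 8 called genes with a change over 1 had the highest mean levels. Actb, the cytoplasmic actin, was at 2776, 2563 and 2599 CPM in wild type and 5255, 5804 and 5172 CPM in the knockout, a rise of 1.03 (SE 0.09, limma adjusted p = 9.99e-07). The tetraspanin Cd63 rose by 1.005, from 2775 ± 417 to 5532 ± 276 CPM (mean ± SD, n = 3 gradients each). Tdh, the threonine dehydrogenase that mouse ESCs depend on, was at 716 ± 53.3 and 1452 ± 248 CPM, a rise of 1.01 (SE 0.12, limma adjusted p = 9.52e-06). The rise of Tdh was largest in the low polysome (0.76, 1.504 and 0.76 in the 3 fractions). On chromosome 6, the glucose transporter Slc2a3 rose by 1.76, the translocon channel Sec61a1 by 1.12 and the calcium-binding protein Calu by 1.22. Slc2a3 was at 933, 856 and 905 CPM in wild type and 2729.5, 3318 and 3091 CPM in the knockout, and its change grew from the monosome to the high polysome (1.12, 1.89 and 2.26, limma F test adjusted p = 0.00307). Igfbp2, which binds insulin-like growth factors, went from 2467, 2151 and 2103 CPM to 931, 768 and 771 CPM and fell by 1.45 (SE 0.10, limma adjusted p = 1.27e-07). Gm11942 (-1.12) is annotated as a processed pseudogene, so its unique reads may belong in part to a near-identical parent gene.

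Gene lists were then described by how many of their tested members were called, to be read against 28.5% higher and 28.7% lower over all genes. A gene could pass the filter on low counts through its libraries of 1 genotype alone, and such a gene was selected in part for its difference. This was so for 512 genes through the knockout, of which 415 were called higher, and for 701 through wild type, of which 536 were called lower. Counts over lists are therefore a description, and for many of the lists such members are named or counted beside them. Trophoblast genes mark the placental lineage. Of 10 tested, 9 rose and 0 fell, with a median change of 1.97 and medians of 2.22, 1.89 and 1.88 in Ddx6 KO gradients 1, 2 and 3. Without Gata2 and Tead4, which lie on chromosome 6, 7 of 8 rose and the median was 1.91. Krt7, Krt8 and Krt19 passed the filter through the knockout alone. The members with the largest changes were the keratins Krt8 (4.00), Krt18 (3.49), Krt7 (3.14) and Krt19 (3.00) and the transcription factor Gata2 (3.70). Krt19 had 11 counts over the 9 wild-type libraries and 404 in the knockout. Krt18, the partner of Krt8 in keratin filaments, was at 3.81, 3.45 and 3.69 CPM in wild type and 60.9, 43.2 and 37.2 CPM in the knockout. Gata2 was at 2.75, 2.01 and 2.47 CPM and then 51.0, 33.1 and 29.9 CPM. Summed over all 13 members, the list went from 194 to 218 CPM in wild-type gradients to 398 to 448 CPM in knockout gradients. The regulator Eomes was the tested member that was not called, with 282 counts over the 9 wild-type libraries and 255 over the 9 knockout libraries. The regulators Cdx2, Elf5 and Hand1 were at low counts. Cdx2 had 8 counts over the 9 wild-type libraries and 180 over the 9 knockout libraries, Elf5 had 5 in each, and Hand1 had 17 and 39, and none of these 3 passed the filter. In bulk libraries, more cells of a type and more RNA per cell cannot be told apart.

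Of 21 tested epithelial adhesion genes, 14 rose and 0 fell (median 0.59), and 3 keratins are also on the trophoblast list. Esrp1, Krt8 and Krt19 passed the filter through the knockout alone. The tight junction genes Cldn7 (2.29) and Cldn4 (1.49) followed the keratins in size of change. Cldn4 was abundant in both genotypes, at 529, 449 and 500.3 CPM and 1224, 1464 and 1464 CPM. The adhesion molecule E-cadherin (Cdh1), named after its values were seen, was at 2083 ± 184 and 3444 ± 381 CPM, a rise of 0.72 (SE 0.11, limma adjusted p = 8.12e-05). Its change within the monosome was 0.19 and within the high polysome 1.15 (limma F test adjusted p = 0.0441). The median of the list was 0.45, 0.68 and 0.82 from the monosome to the high polysome.

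Genes of mesenchyme and matrix were also mostly higher, with 14 of 24 up, 4 down and a median of 0.66. Anxa1, Anxa3, Loxl2 and Snai1 passed the filter through the knockout alone and Twist1 through wild type alone. The list was led by the annexin Anxa3 (3.46), the galectins Lgals1 (2.32) and Lgals3 (2.06), the membrane metalloprotease Mmp14 (2.24) and the calcium-binding protein S100a6 (2.04). Lgals1 went from 78.5, 65.2 and 65.98 CPM to 382, 349 and 319.8 CPM, and Mmp14 from 22.6, 19.8 and 20.3 CPM to 98.4, 104 and 98.3 CPM. The 4 members that fell, named after their values were seen, were Twist1 (-1.38), Zeb1 (-0.90), Fn1 (-0.68) and the vimentin gene Vim (-0.66). Twist1 and Zeb1 are mesenchymal transcription factors, but Snai1, another such factor on the list, was called higher. Of the 25 tested genes of the actin cytoskeleton and its SRF and YAP regulated targets, 16 rose and 3 fell (median 0.48), and 15 up and 3 down of 24 without chromosomes 6 and Y (median 0.47). Tagln passed the filter through the knockout alone. The largest changes were in the focal adhesion protein Zyx (2.51), on chromosome 6, and in the actin-binding proteins Cnn2 (1.61), Tagln2 (1.52), Tpm2 (1.12) and Flna (1.04). Tagln2 went from 549, 485 and 506 CPM to 1288, 1607 and 1541 CPM.

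Germline genes, most of which are silenced by DNA methylation outside germ cells, had 10 of 14 members up, 2 down and a median of 1.08. The counts were 9 up and 2 down of 13 without chromosomes 6 and Y (median 0.96). Mael, Slc25a31 and Taf7l passed the filter through the knockout alone. Rpl10l, a testis copy of a ribosomal protein gene, was the most abundant, at 81.9, 77.3 and 70.2 CPM in wild type and 319, 409.7 and 406 CPM in the knockout (2.29, SE 0.11, limma adjusted p = 3.34e-09). Piwil2, an Argonaute relative that binds piRNAs, went from 3.51, 2.78 and 3.20 CPM to 22.3, 22.1 and 21.1 CPM, with the 3 knockout gradients close together. The mitochondrial carrier Slc25a31 (3.16), the transcription factor subunit Taf7l (2.22) and the synaptonemal complex gene Syce1 (1.36) rose as well. Over its 16 members the list summed to 314 to 333 CPM in wild type and 676 to 821 CPM in the knockout. Markers of the 2-cell-like state were too low to test, at a sum of 1.06 to 1.68 CPM and 7.31 to 8.46 CPM, with 2 of the 12 at 0 in every library.

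Imprinted genes, expressed from 1 parental allele, had 11 of 27 members up and 3 down (median 0.36). Outside chromosome 6 the counts were 8 up and 3 down of 24 (median 0.21). With libraries thinned to equal depth the median of the list was 0.18. Peg13 passed the filter through the knockout alone. Beside Peg10, its chromosome 6 neighbour Sgce (2.67) and, elsewhere on that chromosome, the hydrolase gene Mest (2.44) rose. Mest went from 85.5, 71.9 and 57.2 CPM to 432, 336 and 390.2 CPM. The growth factor Igf2 went from 14.7, 13.7 and 9.52 CPM to 81.1, 64.7 and 65.9 CPM, a rise of 2.45 (SE 0.15, limma adjusted p = 3.4e-08). Its non-coding neighbour H19 rose by 2.83 (SE 0.40, limma adjusted p = 4.9e-05) but unevenly, at 5.18, 3.24 and 5.33 CPM in wild type and 86.9, 24.7 and 19.8 CPM in the knockout. The cell cycle inhibitor Cdkn1c, of the same chromosome 7 region, was at 2.06, 2.59 and 2.34 CPM and 35.0, 5.89 and 4.89 CPM. Phlda2 in that region, named after its values were seen, was at 29.8, 26.7 and 26.6 CPM and 107, 27.5 and 27.8 CPM and did not pass the test (0.64, SE 0.37, limma adjusted p = 0.151). In H19, Cdkn1c and Phlda2 the clone 1 gradient was several times as high as both clone 2 gradients, and with 1 gradient of clone 1 this was not tested.

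In the ESC identity network the calls went both ways. Of 23 tested genes, 5 rose, 5 fell and 13 did not pass the test, with a median of 0.00 whose sign differed between processing alternatives. The counts were 4 up and 4 down of 21 without chromosomes 6 and Y. Pou5f1 (Oct4) was at 33.8, 36.5 and 37.4 CPM in wild type and 32.6, 33.9 and 30.9 CPM in the knockout (-0.14, SE 0.10, limma adjusted p = 0.224). Fgf4, the growth factor that primes ESCs for differentiation, went from 1191, 1145 and 1126 CPM to 694, 590.2 and 644 CPM, a change of -0.85 (SE 0.09, limma adjusted p = 3.39e-06). The transcription factors Sox2 (-0.42), Tfcp2l1 (-0.53) and Sall4 (-0.55) fell, and so did Dppa3 (-0.78), a gene of chromosome 6. Tbx3, a T-box factor, rose from 178, 178 and 178 CPM to 349.5, 339.5 and 325 CPM (0.92, SE 0.08, limma adjusted p = 5.54e-07). Its change was 0.21, 0.98 and 1.58 in the 3 fractions (limma F test adjusted p = 0.000585). The Kruppel-like factors Klf2 (0.52), Klf4 (0.41) and Klf5 (0.36) rose too. Nanog rose by 0.40 (SE 0.11, limma adjusted p = 0.00666), which is less than the median of its chromosome, chromosome 6.

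Genes of the formative and primed epiblast, the state that follows naive pluripotency, had 5 up and 8 down of 15 tested (median -0.48, or -0.29 without the monosome libraries). Otx2, the transcription factor that drives exit from the naive state, went from 33.8, 42.4 and 45.1 CPM to 7.39, 7.68 and 5.51 CPM, a change of -2.48 (SE 0.15, limma adjusted p = 2.75e-08). The de novo DNA methyltransferase Dnmt3b fell by 1.06, while its relative Dnmt3a rose by 0.73. The Ets factors Etv4 and Etv5, both targets of FGF signalling, moved in opposite directions. Etv4 rose from 37.7, 27.3 and 31.7 CPM to 159.9, 128 and 145 CPM (2.15), and Etv5 fell from 61.9, 55.6 and 66.6 CPM to 26.1, 30.2 and 28.1 CPM (-1.11). Sox11 rose by 1.15, and Fgf5, the usual primed marker, had no count in any library.

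Of 6 tested neuroectoderm genes, 0 rose and 5 fell (median -1.19), with Pou3f2 passing the filter through wild type alone, and the sum over 13 members went from 181 to 188 CPM to 88.5 to 112 CPM. Olig2, a bHLH factor of neural progenitors, went from 61.9, 64.2 and 47.5 CPM to 12.9, 11.1 and 11.4 CPM (-2.24, SE 0.13, limma adjusted p = 1.76e-08). The POU factor Pou3f2 (-1.77), the adhesion molecule Ncam1 (-1.24), nestin (Nes, -1.139) and the neuronal tubulin Tubb3 (-0.57) also fell. The member that did not pass was Sox1, at 35.0 ± 0.814 and 40.7 ± 7.95 CPM. Primitive endoderm markers had 4 up and 1 down of 9 tested, with the endocytic adaptor Dab2 (1.142), Amn (0.84), the laminin Lamb1 (0.72) and the matrix protein Sparc (0.68) higher and the collagen Col4a1 (-0.41) lower. Their regulators Gata4, Gata6 and Sox17 did not pass the filter, with 131, 45 and 105 counts in wild type and 194, 80 and 104 in the knockout. Of 5 tested primitive streak genes, the receptor Kdr (2.23) rose and the homeobox gene Gsc (-1.19) fell. Of 7 tested fibroblast markers, 2 rose and 2 fell, led by Fbn1 (1.65), Col5a1 (-1.55) and Twist1 (-1.38). Of these markers, Amn, Kdr and Fbn1 passed the filter through the knockout alone and Gsc and Twist1 through wild type alone.

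**Figure D4:**
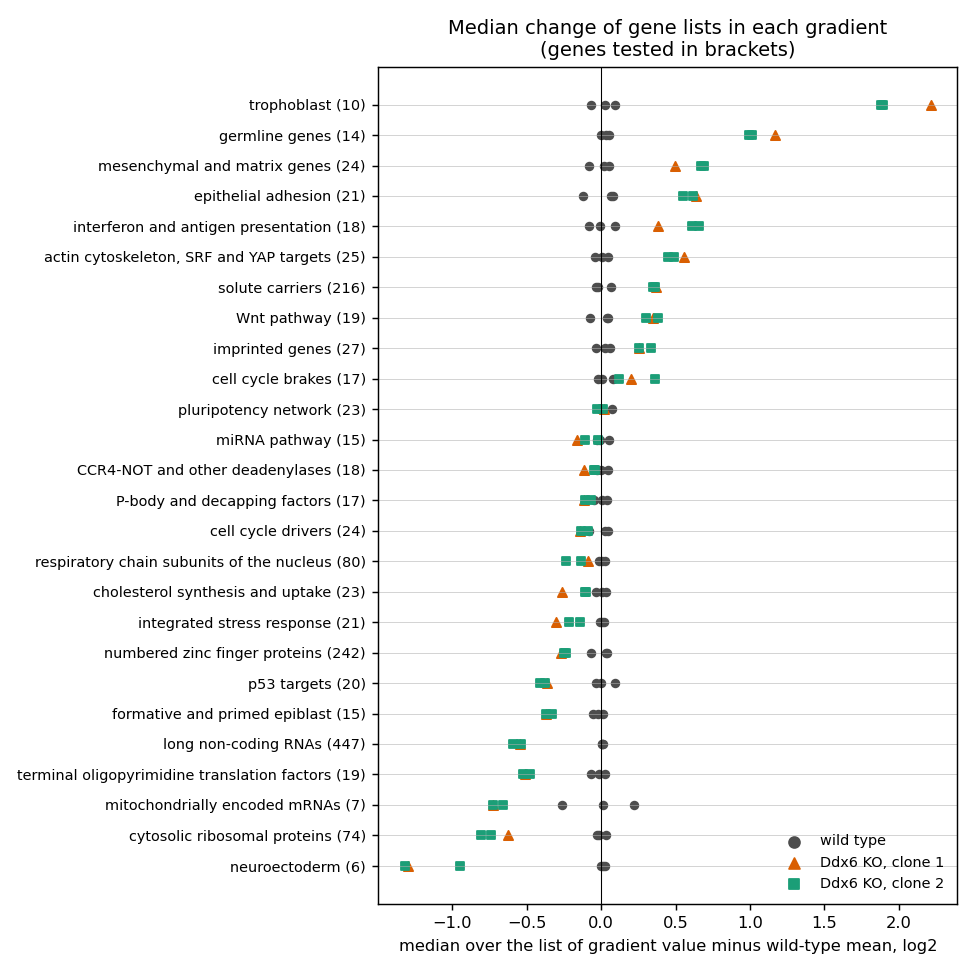
Median over the tested genes of each list of the gradient value minus the wild-type mean (log2, horizontal axis), with the number of genes tested in brackets. The trophoblast list lies at 2.22, 1.89 and 1.88 in knockout gradients 1, 2 and 3, the neuroectoderm list at -1.30, -0.95 and -1.32, and the pluripotency list within 0.03 of 0.

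The genes of the translation machinery fell together. Of 74 tested cytosolic ribosomal protein genes, 0 rose and 66 fell, with a median of -0.71 that was -0.63, -0.81 and -0.74 in the 3 knockout gradients. The largest changes were Rps29 (-1.15), Rpsa (-1.13), Rpl23a (-1.02), Rpl39 (-0.95) and Rpl34 (-0.94). Rpsa, a protein of the small subunit, was at 64.4, 61.1 and 68.5 CPM in wild type and 27.6, 30.4 and 29.6 CPM in the knockout. Reads shared with pseudogene copies were dropped by the unique alignment, so the levels of these genes are uncertain. The 247 processed pseudogenes tested, which hold many ribosomal protein copies, had 6 higher and 158 lower (median -0.59), and 85 of them passed the filter through wild type alone. Other mRNAs with a terminal oligopyrimidine (TOP) start, which mTOR signalling regulates together with ribosomal protein mRNAs, had 0 up and 16 down of 19 (median -0.56). The elongation factor Eef2 went from 1500.0, 1216 and 1546 CPM to 745, 818 and 776 CPM (-0.86, SE 0.10, limma adjusted p = 1.12e-05), and the poly(A)-binding protein Pabpc1 from 2085, 1936 and 2391 CPM to 1242, 1147 and 1196 CPM (-0.83). Nucleophosmin (Npm1, -0.95), the initiation factor Eif4b (-0.85) and the ribosome-bound scaffold Rack1 (-0.64) fell as well. Of the TOP list, Hnrnpa1 passed the filter through wild type alone.

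These falls were not the same in each fraction. From the monosome to the high polysome the median change of TOP factors was -1.25, -0.44 and -0.07, and 14 of the 19 differed between fractions in the F test, against 21.5% of all genes. Without the monosome libraries their median was -0.16. For Eef2 the 3 values were -1.81, -1.13 and 0.36 (limma F test adjusted p = 0.000919). The ribosomal protein genes had medians of -1.03, -0.60 and -0.47, and 21 of the 74 differed between fractions. The monosome is also where wild-type libraries were shallower than knockout libraries. With all libraries thinned to equal depth, the medians over fractions were -0.73 for ribosomal protein genes and -0.60 for TOP factors. Being over all fractions, these 2 medians do not show whether the differences between fractions remained at equal depth. Over all genes, the F test called 1752 with thinned libraries, against 2735 in the main setting.

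All 7 tested mRNAs of the mitochondrial genome fell (median -0.69, or -0.43 with edgeR on counts summed over fractions), from mt-Cytb (-0.91) to mt-Co1 (-0.42). The cytochrome b mRNA mt-Cytb was at 556, 826 and 688 CPM in wild type and 343, 390.5 and 354 CPM in the knockout. These mRNAs are not read by cytosolic ribosomes, so their counts in a gradient are of RNA that sediments with the fractions. Nuclear genes of the respiratory chain had 11 up and 29 down of 80 (median -0.14), and 6 up and 29 down of 75 without chromosomes 6 and Y (median -0.16). The median of the list was -0.34 without the monosome libraries and -0.05 without the high polysome libraries. The list was led by Cox7a1 (-1.73), Ndufa9 (1.17) and Cox6c (-0.75), of which Ndufa9 is on chromosome 6. Long non-coding RNAs were mostly lower, with 32 up and 257 down of 447 tested (median -0.55, -0.55, -0.59 and -0.54 in the knockout gradients), and 25 up and 251 down of 423 without chromosomes 6 and Y (median -0.58). Of them 131 passed the filter through wild type alone and 26 through the knockout alone. Protein-coding genes had 3575 up and 3113 down of 11773 (median 0.02), but 3193 up and 3056 down of 11207 without chromosomes 6 and Y, with a median of -0.0024. Coding lengths up to 500 nt also went with lower calls, with 186 up and 427 down of 1019 genes (median -0.21) and 156 up and 421 down of 961 without chromosomes 6 and Y (median -0.24). The medians of the 1019 genes in the 3 fractions were 0.17, -0.38 and -0.38. Of these genes 49 passed the filter through wild type alone, of which 40 were called lower. Another 26 passed through the knockout alone, of which 20 were called higher.

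**Figure D5:**
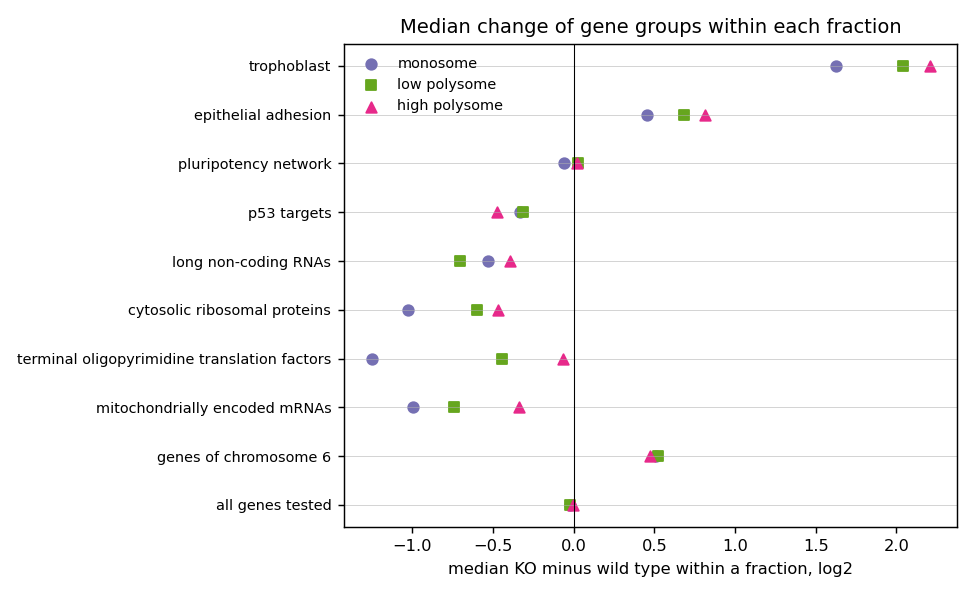
Median change (KO minus wild type, log2, horizontal axis) of gene groups within each of the 3 fractions. TOP translation factors go from -1.25 in the monosome to -0.07 in the high polysome, while chromosome 6 genes lie between 0.47 and 0.52 in all 3 fractions.

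Because DDX6 acts with decapping and deadenylation factors, their own mRNAs were examined. Of 17 tested P-body and decapping genes, 3 rose, 6 fell and 8 did not pass (median -0.08), and the counts were 3 up and 5 down of 16 without chromosomes 6 and Y (median -0.02). Dcp1b passed the filter through wild type alone. Zfp36l1, an AU-rich element binding protein that promotes decay, was at 35.1, 38.0 and 29.7 CPM in wild type and 155, 141 and 145 CPM in the knockout, a rise of 2.09 (SE 0.10, limma adjusted p = 5e-09). Its relative Zfp36l2 rose by 1.01. The decapping enzyme Dcp2 went from 104, 128 and 128 CPM to 79.9, 88.5 and 80.0 CPM (-0.53, SE 0.10, limma adjusted p = 0.000619) and the 5′ exonuclease Xrn1 from 26.3, 38.2 and 41.9 CPM to 23.6, 22 and 21.6 CPM (-0.63, SE 0.15, limma adjusted p = 0.0028). Proteins that bind DDX6 had small changes. Eif4enif1 (4E-T) rose by 0.26 and Lsm14b fell by 0.22, while Lsm14a (-0.22), Edc3 (0.11) and Patl1 (-0.08) did not pass the test.

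Of 18 deadenylase genes 3 rose and 4 fell (median -0.08), and the same numbers did of the 17 that are not on chromosome 6. The antiproliferative adaptors Tob1 (0.99) and Tob2 (0.62), which bring CCR4-NOT to mRNAs, rose. The scaffold Cnot1, which binds DDX6, went from 163 ± 7.51 to 131 ± 2.34 CPM (mean ± SD, n = 3, -0.32, SE 0.08, limma adjusted p = 0.00454). The catalytic subunits Cnot6 (0.06), Cnot6l (0.02), Cnot7 (-0.21) and Cnot8 (-0.07) did not pass the test.

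In the miRNA pathway 3 of 15 genes rose and 4 fell (median -0.07), with Lin28b passing the filter through the knockout alone and Ago4 through wild type alone. The let-7 inhibitor Lin28a went from 56.0, 43.5 and 42.8 CPM to 19.3, 12.7 and 15.0 CPM (-1.58, SE 0.15, limma adjusted p = 1.66e-06), while its paralog Lin28b, at low levels, went from 1.41, 1.17 and 1.003 CPM to 3.26, 3.27 and 3.17 CPM (1.15, SE 0.18, limma adjusted p = 0.000115). Ago2, the slicing Argonaute, fell from 379.9, 420.4 and 431 CPM to 286, 305 and 321 CPM (-0.43). Of the GW182 scaffold genes, Tnrc6a (0.48) and Tnrc6b (0.54) rose and Tnrc6c (-0.46) fell. The processing enzymes Drosha (-0.06), Dgcr8 (-0.02) and Dicer1 (-0.07) did not pass the test.

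The ESCC miRNAs are, as a family, a large part of the miRNAs of mouse ESCs and drive their cell cycle. Naive ESCs of the study's reporter line were negative for the miR-302 reporter, and miRNAs were not measured here. Mature sequences of the family are shown because members that share a seed share most predicted targets. Bases 2 to 8, the seed, are in capitals (RefSeq, GRCm38.p6, plus strand).
mmu-miR-291a-3p: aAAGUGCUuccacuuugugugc
mmu-miR-294-3p: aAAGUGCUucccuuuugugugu
mmu-miR-295-3p: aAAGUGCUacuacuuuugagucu
mmu-miR-302b-3p: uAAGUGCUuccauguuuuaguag
mmu-miR-302d-3p: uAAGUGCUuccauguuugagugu
They lie, as numbered in that build, with mmu-miR-291a-3p at chr7:3218968-3218989, mmu-miR-294-3p at chr7:3220691-3220712, mmu-miR-295-3p at chr7:3220815-3220837, mmu-miR-302b-3p at chr3:127545275-127545297 and mmu-miR-302d-3p at chr3:127545665-127545687, and all 5 have the seed AAGUGCU. The matching 8mer in a target is AGCACTTA, read 5′ to 3′ on the mRNA strand.

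Of 9 genes listed as ESCC targets, 5 rose and 2 fell (median 0.34), and the counts were 4 up and 2 down of 8 without chromosomes 6 and Y (median 0.42). The median of the 9 was 0.19 with libraries thinned to equal depth and 0.18 without the high polysome libraries. Dkk1 passed the filter through the knockout alone. Dkk1, a secreted Wnt inhibitor, went from 0.997, 1.64 and 1.02 CPM to 16.3, 10.9 and 12.8 CPM (3.01, SE 0.19, limma adjusted p = 5.17e-08), and the TGF-beta receptor Tgfbr2 from 4.06, 4.45 and 3.01 CPM to 27.1, 26.6 and 26.9 CPM (2.67, SE 0.14, limma adjusted p = 1.1e-08). The cell cycle inhibitor Cdkn1a (p21) rose by 0.68, from 510.2, 453 and 417 CPM to 742, 738 and 725 CPM, and the NF-kB subunit Rela by 0.70. Ei24 fell by 0.63. Of those named after their values were seen, Casp2 (0.34) rose, the Hippo kinase Lats2 (-0.60) fell, and Rbl2 (0.17) and Mbd2 (-0.19) did not pass. Over all genes, the 494 tested genes with the 8mer in an annotated 3′ UTR had 142 higher (28.7%) and 126 lower (25.5%). The 8892 genes without an 8mer or 7mer had 2759 higher (31.0%) and 2350 lower (26.4%). The medians were 0.02 and 0.02, and that of the 8mer genes changed sign with DESeq2 size factors and without chromosomes 6 and Y. It also did so without wild-type gradient 1 (-0.01) and without the high polysome libraries (-0.05). From the monosome to the high polysome the medians were -0.08, -0.03 and 0.09 for 8mer genes. For genes without a site they were 0.03, 0.03 and 0.01. A mean over fractions does not read such shifts. The study's own targets were conserved TargetScan predictions, which is a different set.

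Cell cycle genes were described by their role. Of 17 brakes, 7 rose and 4 fell (median 0.18), and outside chromosome 6 the counts were 5 and 4 of 15. The median of the 17 was 0.33 with a filter of 10 CPM and 0.42 without the high polysome libraries. Cdkn1b (p27), on that chromosome, went from 59.3, 63.5 and 60.7 CPM to 130.1, 138 and 134 CPM, a rise of 1.13 (SE 0.08, limma adjusted p = 1.71e-07). Gadd45a, also there, rose by 1.64 and its relative Gadd45g by 0.95. Of 24 drivers, 5 rose and 10 fell (median -0.10). The named drivers went both ways. The kinase Cdk6 (1.36) and cyclin Ccne1 (1.06) rose, and the phosphatase gene Cdc25b (1.03) did too, while cyclin Ccnd1 fell by 0.87, from 139, 146 and 126 CPM to 75.5, 74.5 and 73.6 CPM.

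Targets of p53 were mostly lower, with 4 up and 13 down of 20 tested and a median of -0.38 (-0.36, -0.41 and -0.38 in the knockout gradients). The pro-apoptotic gene Bbc3 (Puma) went from 119, 86.8 and 84.5 CPM to 51.7, 52.7 and 51.7 CPM (-0.87, SE 0.12, limma adjusted p = 4.08e-05). Ccng1 (-0.83), the nuclease Aen (-0.76) and the sestrin Sesn1 (-0.72) fell with it. Cdkn1a and Perp (1.45), a gene of desmosomes as well as of apoptosis, were among the 4 that rose. Genes of the integrated stress response had 2 up and 10 down of 21 (median -0.21), and 1 up and 10 down of 19 without chromosomes 6 and Y (median -0.30). Its central transcription factor Atf4 went from 827, 785 and 812 CPM to 401, 339 and 334 CPM (-1.18, SE 0.09, limma adjusted p = 2.51e-07), and its target Chac1, which degrades glutathione, from 38.1, 47.4 and 47.0 CPM to 12.99, 7.26 and 7.36 CPM (-2.25). Other targets that fell were Atf3 (-0.75), Psat1 (-0.62) and Ddit4 (-0.57).

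Genes of interferon response and class I antigen presentation had 10 up and 1 down of 18 tested (median 0.58), with Ifi27 and Rsad2 passing the filter through the knockout alone. Tapbp, which loads peptides onto class I molecules, went from 96.7, 74.5 and 81.7 CPM to 298, 346 and 319.7 CPM (1.93, SE 0.10, limma adjusted p = 1.12e-08), and the class I light chain B2m from 60.3, 58.4 and 50.6 CPM to 141, 116 and 124 CPM (1.16, SE 0.10, limma adjusted p = 7.89e-07). The antiviral genes Rsad2 (3.00), Ifi27 (2.25) and Oas1a (1.01) rose from low levels, and Rsad2 had 6 counts over the 9 wild-type libraries and 333 over the knockout libraries. The class II gene H2-Eb1, above, went the other way.

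Among signalling pathways, Wnt genes had 11 up and 3 down of 19 (median 0.36), or 8 and 3 of 16 outside chromosome 6 (median 0.17), with Dkk1 passing the filter through the knockout alone and Nkd1 through wild type alone. Porcn, the acyltransferase that makes Wnt ligands secretable, went from 15.7, 12.6 and 13.4 CPM to 81.9, 100.4 and 117 CPM (2.79, SE 0.13, limma adjusted p = 3.97e-09), and the receptor Fzd7 rose by 1.55. The feedback inhibitor Nkd1 fell by 1.02. Of 28 genes of the BMP, Nodal and TGF-beta pathways, 11 rose and 6 fell. The Nodal antagonist Lefty2 went from 259, 276 and 312 CPM to 33.0, 57.9 and 58.9 CPM (-2.53, SE 0.17, limma adjusted p = 9.84e-08). The BMP targets Id1 (1.92) and Id3 (1.57) rose. The LIF pathway had 2 up and 3 down of 13, with its transcription factor Stat3 (0.70) higher and the target Gbx2 (-0.66) lower. Of these, Tgfb1 of the TGF-beta list passed the filter through the knockout alone and Gbx2 through wild type alone.

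Metabolic lists held genes of both directions. Cholesterol genes had 4 up and 10 down of 23 (median -0.18), with the sterol isomerase Ebp rising by 1.16 and Insig1 (-0.78), Dhcr7 (-0.70), Fdps (-0.68) and Sqle (-0.61) falling. Glycolysis genes had 6 up and 4 down of 20, and 2 up and 3 down of the 14 outside chromosome 6. The transporter Slc2a1, on another chromosome, rose from 116, 111 and 99.5 CPM to 224, 234 and 214 CPM (1.04), and the phosphofructokinase Pfkp fell from 93.1, 107 and 117 CPM to 37.9, 40.7 and 34.7 CPM (-1.47). On chromosome 6, Tpi1 rose by 1.24 and Ldhb fell by 1.10. Of the glycolysis list, Gapdh passed the filter through the knockout alone. Solute carriers, the largest family of membrane transporters, had 112 up and 37 down of 216 (median 0.37), and 103 up and 35 down of 205 without chromosomes 6 and Y (median 0.34). Of the 216, 15 passed the filter through the knockout alone, of which 13 were called higher. Another 6 passed through wild type alone, of which 2 were called lower. Among the larger changes were the manganese and zinc transporter Slc39a14 (2.77) and the carrier Slc25a24 (2.91).

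Numbered zinc finger genes, a list set by symbol that includes repressors of transposable elements, had 30 up and 99 down of 242 (median -0.26). Without chromosomes 6 and Y they had 20 up and 98 down of 226 (median -0.31). Of the 242, 25 passed the filter through wild type alone and 6 through the knockout alone. Zfp992 went from 74.8, 71.1 and 46.2 CPM to 17.6, 9.54 and 11.46 CPM (-2.29), followed by Zfp984 (-2.00), Zfp961 (-1.89), Zfp819 (-1.62) and Zfp975 (-1.60). Members of this family have close relatives in clusters, so unique alignment may undercount them. Of 14 genes linked to DNA methylation, 3 rose and 4 fell, and without Tet3, on chromosome 6, 2 rose. Beside Dnmt3b and Dnmt3a, the dioxygenase Tet3 (0.79) rose, and Mbd3 (-0.68) and Zfp57 (-0.51) fell. Of the other 50 DEAD and DEAH box helicases, 8 rose and 10 fell (median -0.03), and the largest changes outside the Y chromosome were the germ cell helicase Ddx4 (1.36), Ddx47 (1.08) on chromosome 6 and Ddx43 (-1.03).

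The mean over fractions hides shifts between them. The F test of the genotype by fraction terms called 2735 genes (21.5%). These made up 21.8% of the genes called in the mean and 21.2% of the 5430 that were not. The count depended on single gradients, at 601 without knockout gradient 3, 898 without wild-type gradient 1 and 1079 without wild-type gradient 2. Examples with no call in the mean, named after their values were seen, were the glutamine tRNA synthetase Qars and the zinc finger gene Zkscan3. Qars changed by -1.19 in the monosome and 0.78 in the high polysome (limma F test adjusted p = 0.000383), with a mean change of -0.11. Zkscan3 changed by -0.70 and 1.13 in the same fractions, with a mean of -0.02. Wsb1, a ubiquitin ligase subunit, changed by 0.09, -0.29 and -0.79 in the 3 fractions. Its mean of log2 values fell by 0.33 (limma adjusted p = 0.0189), while the counts summed over fractions gave 0.37 in edgeR and 0.38 in DESeq2, and the cause of this reversal was not tested.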

How the data were processed

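Counts came as deposited by the authors, 1 table of reads per gene and library. Per their methods and processing notes, 3′ end libraries (QuantSeq) were trimmed with cutadapt 1.14, aligned to mm10 with STAR 2.5.3a and counted by strand with featureCounts 1.5.3. Uniquely aligned reads were kept, so genes with near-identical copies are undercounted, and no molecular identifiers were used. The 92 ERCC rows were dropped.

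Here, log2(CPM + 0.5) with TMM scaling (edgeR 4.0.16) was averaged over fractions and tested with limma 3.58.1 in R 4.3.3 (adjusted p under 0.05). An F test of genotype by fraction used all 18 libraries. The scripts were tested on simulated data. Named genes were Ddx6, the 12 largest rises and falls, the 8 most abundant genes with a change over 1, up to 5 members of each list by size of change, and any member of the ESC identity, P-body, CCR4-NOT and miRNA lists. Members and lists were chosen with earlier results of these data known. Alternatives covered scaling, pseudocount, filter, depth, each gradient or fraction left out, voom, edgeR, DESeq2 1.42.0 and a replicate block.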

Additional observations from a re-analysis of the deposited data

Results flagged for a closer look

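The change between genotypes differed between the fractions for 2735 genes in the F test of limma, 21.5% of those tested, and among the genes named for their size of change it did so for 9. The adjusted p of that test was 0.0139 for Rhox6, 0.00826 for Bdkrb2, 0.0223 for Krtdap, 0.0101 for Krt8, 0.0448 for Smtnl1, 0.00307 for Slc2a3, 0.0168 for Calu, 0.0137 for Tdh and 0.0362 for Ddx6.

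The Y-linked genes differed in direction between the clones. Ddx3y was 0.96 above the wild-type mean (log2) in clone 1 and at -3.8 relative to it in clone 2. Eif2s3y was at 1.92 and -2.61, and Uty at 0.16 and -3.11. This difference between clones was not tested, since clone 1 has 1 gradient.

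ERCC spike-in transcripts, which no comparison used, had up to 169 counts in a library, and they were not analysed further.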

How the results depend on the processing

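All 721 values of the 33 genes named for their size of change kept their direction and stayed past the threshold in the 22 alternatives. Apart from Ddx6, these genes were picked from the same libraries for large changes, so this says little about the other calls. The share of all calls that was kept ran from 78.9% to 99.8%. It was lowest with the filter of 10 CPM, which tests fewer genes, and highest with a pseudocount of 2 CPM. Without 1 gradient, 3144 to 3627 genes were higher and 3047 to 3622 lower. With an absolute log2 change over 1 as well, 910 were higher and 735 lower. Without chromosomes 6 and Y, a setting chosen after seeing the data, the counts were 3295 and 3561. The share of higher genes among calls was 46.5% with DESeq2 size factors and 53.5% with no filter on low counts.

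The number of genes whose change differed between fractions ranged from 601 to 2782 without 1 gradient. It was 898 without wild-type gradient 1, 1079 without wild-type gradient 2, 601 without knockout gradient 3 and 1752 with libraries thinned to equal depth.

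With the replicate block, 3776 genes were higher and 3829 lower. The labels do not say that a number marks a shared day, and deviations of same-numbered gradients correlated at 0.24, -0.10 and 0.15, with knockout gradient 2 closest to wild-type gradient 3, so the numbers were not taken as pairs.

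The medians of 9 of 37 lists changed sign in some alternative, and in the main setting all of those lay within 0.161 of 0. Their moves could be larger. The fibroblast marker median, -0.06 in the main setting, was 0.23 without the monosome libraries and -0.82 with a filter of 10 CPM. The trophoblast median was 1.28 with a pseudocount of 2 CPM. Wsb1, named after its values were seen, was the single call that reversed, at 0.37 with edgeR and 0.38 with DESeq2 on counts summed over fractions, and the cause was not tested. Scaling on ERCC transcripts was not run, since libraries held 28 to 169 of their counts.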
